A study of Mus musculus with 10 samples.

Results

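The miR-29 family was followed in small extracellular vesicles, the nanometre-sized particles that cells release with RNA inside, taken from brown adipose tissue (BAT) and plasma of C57BL/6J mice. The members followed are 4 of the 721 mature miRNAs listed: miR-29a-3p, miR-29b-3p, miR-29c-3p and miR-29c-5p. They were chosen by name, and all are present in both the BAT and the plasma table. Other arms of the family's hairpins are listed too and are described apart. Of the 10 small RNA libraries, BAT vesicles account for 6, with 3 titled Sed and 3 titled Exe, and plasma vesicles for 4, with 2 of each. The plasma libraries are also described as wt or wt_ex, read here as wild type, and the BAT libraries carry no such label. The series concerns exercise, so Sed is read as mice without training and Exe as trained mice, but the labels give every sample, Sed included, the same schedule of 90 min sessions, 2 a day over 4 weeks. The labels give no age and do not say whether replicates are separate animals, pools or repeat libraries, so p-values speak to the spread among the libraries at hand, which could be technical alone.

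A miRNA is a short RNA that guides Argonaute proteins to messenger RNAs, and most of its pairing choice is set by its seed, bases 2 to 8 from the 5′ end. The guide arms of the miR-29 family, the 3p arms, share a seed and are best known for holding down collagens and other extracellular matrix genes, in the heart and in other organs that scar. The opposite arm of each hairpin, here miR-29c-5p, has another seed and is usually the less abundant product.

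The mature sequences are printed because the family's definition and the limits of counting its members both rest on them; they come from RefSeq (GRCm38.p6), with the seed in capitals.
miR-29a-3p: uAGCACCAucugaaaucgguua
miR-29b-3p: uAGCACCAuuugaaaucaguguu
miR-29c-3p: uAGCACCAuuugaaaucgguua
miR-29c-5p: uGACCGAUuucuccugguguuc
Among the 605 of the 721 listed miRNAs that matched a RefSeq sequence, the seed AGCACCA was found in 3, the 3p members themselves, and GACCGAU in 1, miR-29c-5p itself. Counting positions from 1 at the 5′ end, miR-29a-3p and miR-29c-3p differ by C10U alone over 22 bases. From miR-29c-3p to miR-29b-3p the changes are G18A, U21G and A22U, so these 2 share their leading 17 bases. From miR-29a-3p to miR-29b-3p there are 4 changes: C10U, G18A, U21G and A22U. The mismatches that the counting allowed are not stated, so a read with an error or a short 3′ end could have been counted for the wrong 3p member.

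The 3p members come from 2 pairs of hairpins (GRCm38). On chromosome 6, minus strand, miR-29a-3p lies at chr6:31062673-31062694 in Mir29a and miR-29b-3p at chr6:31063025-31063047 in Mir29b-1, and the hairpins are 275 bases apart. On chromosome 1, plus strand, miR-29b-3p lies again at chr1:195037091-195037113 in Mir29b-2, and Mir29c carries miR-29c-5p at chr1:195037562-195037583 and miR-29c-3p at chr1:195037600-195037621. Mir29b-2 and Mir29c are 426 bases apart, inside exon 3 of the noncoding transcript A330023F24Rik-204, and on the other strand from exon 11 of Cd46-203, within its 3′ UTR (GENCODE M21). The Mir29b-1 hairpin overlaps the edge of exon 1 of the lincRNA Gm27019. Since Mir29b-1 and Mir29b-2 give the same mature 3p sequence, the reads of miR-29b-3p cannot be divided between the pairs.

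The DNA letters complementary to the shared seed, TGGTGCT, were searched on the transcript strand of annotated 3′ UTRs, taking for each gene the transcript with the longest one, to show which collagens the family could address. They occurred in 25 of 44 collagen genes (56.8%) and in 2755 of 21020 protein-coding genes (13.1%), or 0.693 against 0.106 matches per kb. The median 3′ UTR length was 1032.5 bases in the collagen genes and 961 in all genes. At least 2 matches were present in 11 collagen genes (25%), led by Col26a1, Col4a3 and Col5a1 with 4 each, against 2.03% of all genes. The matches of the main fibrillar collagens Col1a1 and Col3a1 are shown with the seed match in capitals.
Col1a1, chr11:94952523-94952545, plus strand: gtgggaaggaatttcTGGTGCTa
Col3a1, chr1:45348967-45348989, plus strand: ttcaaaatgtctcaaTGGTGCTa
Both seed matches are followed by an A, the base that makes the match one letter longer in target catalogues. Col1a2, which encodes the partner chain of Col1a1, had no match in the window searched. These matches are a description of sequence: no collagen RNA or protein was measured, and no target was tested.

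The BAT libraries held 104064 to 172279 miRNA reads and the plasma libraries 1209116 to 1798169. The miR-29 members made up 701 to 1353 reads of each BAT library and 97 to 943 of each plasma library. As a share of miRNA reads they came to 0.770% ± 0.233 in Sed BAT and 0.714% ± 0.127 in Exe BAT (SD, n = 3 each), ranges that overlapped. In plasma the share was 0.0195% and 0.0524% in the Sed libraries and 0.00802% and 0.0292% in the Exe libraries, so the plasma values rest on few reads. Sed BAT replicate 2 stood apart from the other BAT libraries: the 7 brown adipocyte marker miRNAs took 6.78% of its reads against 18.3% to 30.1% elsewhere in BAT, and results are given without it where it matters. That sum is mostly 1 marker, miR-378a-3p, with a mean of 26359 reads a BAT library against 2196 for miR-193b-3p, the next. All 7 brown adipocyte markers were read and tested in the BAT libraries, and none was at 0 throughout.

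In BAT vesicles the members went in different directions: miR-29b-3p was 2.28-fold lower in Exe, the only member past the threshold, while the miR-29a-3p values were higher in every Exe library without passing it. The miR-29c arms showed no difference past the threshold. In such bulk preparations, vesicles from fewer cells of a type and less miRNA per cell or vesicle cannot be told apart. Levels are given as CPM, reads scaled to 1000000 on edgeR's TMM scale, which sets library sizes so that most miRNAs are level; the call is an adjusted p under 0.05 over all 199 miRNAs tested.

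For miR-29b-3p, 363, 430 and 320 reads were counted in Sed BAT replicates 1, 2 and 3, and 112, 238 and 187 in Exe BAT. On the CPM scale these were 2327, 3241 and 2923 in Sed against 979, 1549 and 1182 in Exe. Every Exe library lay below every Sed library, with group means of 2830 ± 464 and 1237 ± 289 CPM (SD, n = 3 each). The log2 fold change was -1.19 ± 0.26 (SE, edgeR's quasi-likelihood test, adjusted p = 0.0139), rank 15 of the 199 by p. The call was lost without Exe BAT replicate 1 (-0.99, adjusted p = 0.0638), without Exe BAT replicate 3 (-1.06, 0.0881) and with library sizes taken from the deposited RPM (-0.94, 0.0886), all by edgeR.

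For miR-29a-3p, the most abundant member, 441, 476 and 340 reads were counted in Sed BAT and 467, 944 and 812 in Exe BAT. These were 2826, 3588 and 3106 CPM in Sed against 4083, 6145 and 5132 CPM in Exe. The groups did not overlap, with means of 3173 ± 385 and 5120 ± 1031 CPM (SD, n = 3 each). The log2 fold change of 0.69 ± 0.24 (SE) missed the threshold (edgeR's quasi-likelihood test, adjusted p = 0.0613). It passed without Sed BAT replicate 2, the library with a low brown adipocyte marker share (0.86, edgeR adjusted p = 0.0120), with upper-quartile factors (0.82, 0.0441) and with a stricter filter, a mean of 50 counts or more (0.82, 0.0398).

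Of the arms of Mir29c, miR-29c-3p had 178, 155 and 111 reads in Sed BAT and 99, 149 and 158 in Exe BAT, or 1141, 1168 and 1014 CPM against 866, 970 and 999 CPM. The CPM ranges were separate by a narrow margin, 1014 against 999, and the log2 fold change was -0.23 ± 0.22 (SE, edgeR adjusted p = 0.477). miR-29c-5p had 27, 15 and 18 reads in Sed BAT and 23, 22 and 29 in Exe BAT, and its CPM values overlapped (173, 113 and 164 against 201, 143 and 183). Its log2 fold change was 0.22 ± 0.31 (SE, edgeR adjusted p = 0.637).

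**Figure D1:**
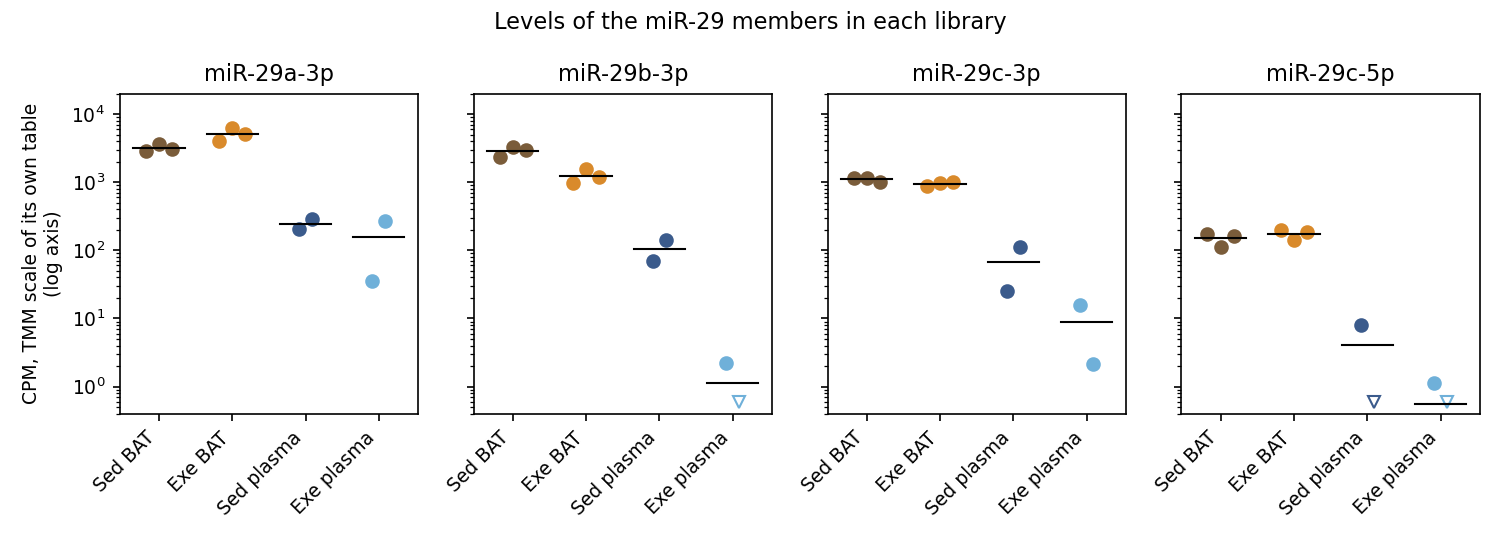
Level of each member in every library, in CPM on the TMM scale of its own table (log axis); points are libraries, bars are group means and open triangles at the foot mark libraries with 0 reads. The tables were scaled separately, so heights are compared within BAT or within plasma; miR-29b-3p is lower in all 3 Exe BAT libraries and has 4 and 0 reads in Exe plasma.

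Against all miRNAs tested, 1 of the 4 members was called in BAT, where 22.6% of all tested miRNAs were called in either direction and 13.1% were called lower in Exe. The median log2 fold change of all 199 was -0.06, with 19 called higher and 26 lower. Of the 4 members, 3 (miR-29a-3p, miR-29b-3p and miR-29c-3p) had CPM values that did not overlap between the groups, as did 44.2% of all tested. The split of the calls over all miRNAs moved with the scaling, to 26 higher and 20 lower with upper-quartile factors and to 25 and 13 with the RPM library totals. Those scalings raised the median log2 fold change of all miRNAs by 0.15 and 0.21, and library size alone lowered it by 0.12. Under each of the 15 alternatives run, scalings included, the estimate of miR-29a-3p stayed above 0 (0.54 to 0.93) and that of miR-29b-3p below it (-1.37 to -0.94).

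On the deposited RPM scale, reads per 1000000 of a library's whole total rather than of its miRNA reads, miR-29a-3p was 21.6, 22.5 and 16.6 in Sed BAT and 24.7, 48.6 and 42.6 in Exe BAT. miR-29b-3p was 17.8, 20.3 and 15.6 in Sed BAT and 5.92, 12.3 and 9.82 in Exe BAT on the same scale. Both were without overlap, and both reached the smallest p that 3 against 3 allow (exact permutation test, two-sided, p = 0.1 each, 0.3 after Benjamini-Hochberg adjustment over 12 such tests). miR-29c-3p had group means of 7.15 ± 1.66 and 7.07 ± 1.62 RPM (SD, n = 3 each, exact permutation p = 0.9), and miR-29c-5p 0.969 ± 0.317 and 1.29 ± 0.205 (exact permutation p = 0.3). Taken per 1000000 miRNA reads, miR-29a-3p and miR-29c-5p overlapped between the groups (exact permutation p = 0.2 and 0.5). On that scale miR-29b-3p and miR-29c-3p did not overlap (exact permutation p = 0.1 each, 0.3 after the same adjustment). The means of miR-29c-3p were 1166 ± 284 in Sed and 902 ± 46.6 in Exe (SD, n = 3 each).

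Within the family, the make-up of the reads does not depend on how a library is scaled. miR-29a-3p took 43.7%, 44.2% and 43.1% of the members' reads in Sed BAT and 66.6%, 69.8% and 68.5% in Exe BAT. miR-29b-3p took 36.0%, 40.0% and 40.6% in Sed BAT and 16.0%, 17.6% and 15.8% in Exe BAT. The exact (Clopper-Pearson) 95% intervals of the 2 groups lay apart, with miR-29a-3p at most 47.3% in a Sed library and at least 63.0% in an Exe library. These intervals describe counting error within a library and not the spread between libraries. Reads copied by PCR from the same molecule are not independent, so the intervals may be too narrow even for counting error.

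The miR-29c arms held a steadier share. miR-29c-3p took 15.4% ± 1.97 of the members' reads in Sed BAT and 12.8% ± 1.61 in Exe BAT (SD, n = 3 each). miR-29c-5p took 2.12% ± 0.657 and 2.45% ± 0.828 (SD, n = 3 each). Both arms overlapped between the groups.

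The ratio of miR-29a-3p to miR-29b-3p reads was 1.21, 1.11 and 1.06 in Sed BAT and 4.17, 3.97 and 4.34 in Exe BAT. The 6 libraries thus split into near-equal reads in Sed and about 4 reads of miR-29a-3p for each of miR-29b-3p in Exe, with SDs of 0.0784 and 0.188. The ratio was picked out after its values were seen and was not tested. The ratio of miR-29a-3p to miR-29c-3p, which differ by C10U alone, was 2.48, 3.07 and 3.06 in Sed BAT and 4.72, 6.34 and 5.14 in Exe BAT. For miR-29b-3p to miR-29c-3p, alike over their leading 17 bases, the ratio was 2.04, 2.77 and 2.88 in Sed BAT and 1.13, 1.60 and 1.18 in Exe BAT. Whether reads moved between the 3p members in the counting was not tested.

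**Figure D2:**
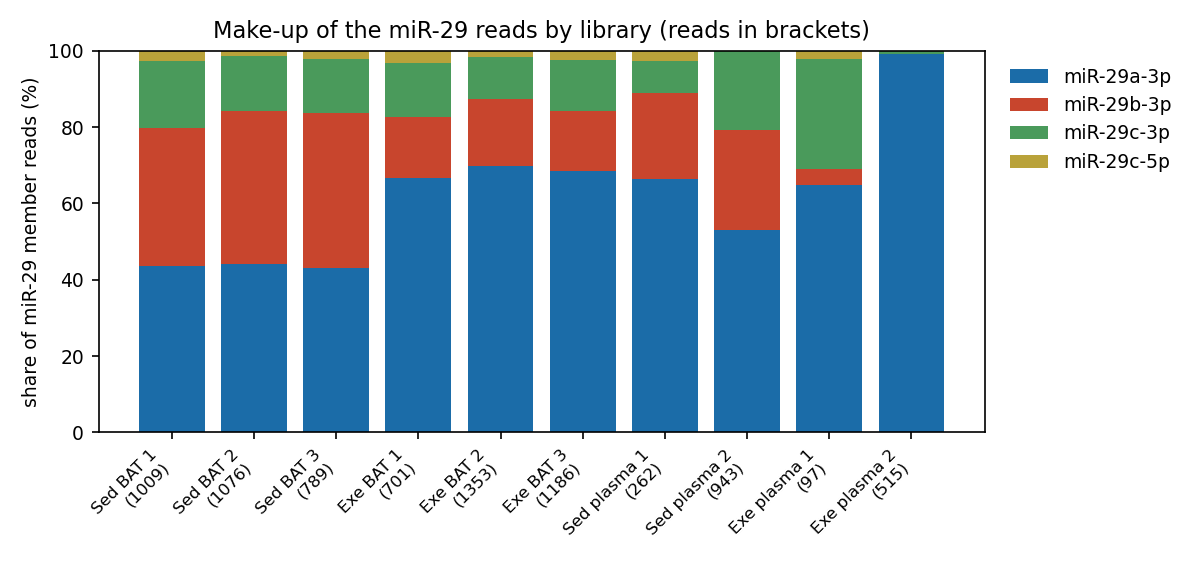
Share of each member in the summed reads of the 4 members, in percent, for each of the 10 libraries, with the number of member reads in brackets. In BAT the miR-29b-3p segment is 36.0% to 40.6% in Sed and 15.8% to 17.6% in Exe; in Exe plasma it is 4.12% of 97 reads and 0% of 515.

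The other hairpin arms were rare. miR-29b-1-5p, the passenger of Mir29b-1 on chromosome 6, had 5, 1 and 0 reads in Sed BAT and 16, 9 and 5 in Exe BAT. Its 6 reads against 30 gave an Exe to Sed rate ratio of 4.35, and it was filtered out of the main test. The exact 95% counting interval, 1.78 to 12.8, pools the reads of a group and leaves out the spread between libraries. Too few reads were counted for the filter. Without a filter on low counts, 29 of 679 miRNAs were called higher in Exe BAT and 29 lower. miR-29b-1-5p was among those called higher (log2 fold change 2.26 ± 0.68, edgeR's quasi-likelihood test, adjusted p = 0.0169), although the CPM of Sed replicate 1 and Exe replicate 3, 32.0 and 31.6, overlapped. Its 3p partner, miR-29b-3p, was lower in Exe BAT, but the reads of that arm also come from Mir29b-2. miR-29b-2-5p, the passenger of Mir29b-2, had 2, 2 and 0 reads in Sed BAT and 1, 0 and 0 in Exe BAT. miR-29a-5p had 0, 2 and 0 and then 1, 2 and 2. The plasma table lists miR-29a-5p and miR-29b-2-5p with 1 read each in all over its 4 libraries.

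In plasma vesicles none of the 3 members tested passed the threshold by edgeR, adjusted or not. The widest gap was that of miR-29b-3p, with 306 reads in the 2 Sed libraries and 4 in the 2 Exe libraries. No miRNA at all was called there (0% of 182 by edgeR's quasi-likelihood test), while 60 had an unadjusted p under 0.05, DESeq2 called 33 higher and 26 lower and limma-voom 15 higher and 25 lower. Among the members, DESeq2 called miR-29b-3p and limma-voom none. Of the 3 members tested in plasma, miR-29b-3p and miR-29c-3p did not overlap between the groups in CPM, against 59.3% of all tested. For miR-29c-3p this depended on the TMM factors, which ran from 0.642 to 1.49 in plasma. As a share of each library's miRNA reads, without these factors, miR-29c-3p overlapped between the groups (exact permutation p = 0.667). miR-29b-3p did not overlap on that scale either. With 2 libraries a group, an exact permutation test cannot go below 0.33.

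miR-29b-3p had 59 and 247 reads in Sed plasma and 4 and 0 in Exe plasma, or 68.6 and 140 CPM against 2.23 and 0. The count of 0 in 1766070 miRNA reads allows a level of up to 1.70 reads per 1000000. Summed over libraries, the Sed to Exe rate ratio was 72.5 (exact 95% counting interval 28.0 to 268). That interval pools the reads of a group and leaves out the spread between libraries. The fitted log2 fold change was -6.45 ± 2.83 (SE, edgeR adjusted p = 0.176), and DESeq2 put it at -6.75 (adjusted p = 0.00836). It was -10.21 without Exe plasma replicate 1, which leaves an Exe library with 0 reads so that the fit depends on its prior count, and -4.89 without Exe plasma replicate 2, -6.86 without Sed plasma replicate 1 and -5.90 without Sed plasma replicate 2. The sign was that of the BAT estimate, and both Exe libraries lay below both Sed libraries.

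miR-29a-3p had 174 and 501 reads in Sed plasma and 63 and 511 in Exe plasma, or 202 and 284 CPM against 35.1 and 273. One Exe library was inside the Sed range and the other far below it, and the log2 fold change was -0.66 ± 1.84 (SE, edgeR adjusted p = 0.795). Without Exe plasma replicate 1 its sign turned, to 0.35. miR-29c-3p had 22 and 195 reads in Sed plasma and 28 and 4 in Exe plasma, or 25.6 and 110 CPM against 15.6 and 2.14 (log2 fold change -2.93 ± 2.28, SE, edgeR adjusted p = 0.427). That estimate was -4.71 and -1.48 without Exe plasma replicates 1 and 2, and -3.59 and -1.57 without Sed plasma replicates 1 and 2. miR-29c-5p, with 7 and 0 reads against 2 and 0, did not pass the filter.

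The make-up of the family in plasma followed the same order in Sed as in BAT, with miR-29a-3p at 66.4% and 53.1%, miR-29b-3p at 22.5% and 26.2%, and miR-29c-3p at 8.40% and 20.7%. In Exe plasma the 2 libraries were unlike each other. In replicate 1 miR-29a-3p took 64.9% and miR-29c-3p 28.9% of 97 reads. In replicate 2 miR-29a-3p took 99.2% of 515 reads. The ratio of miR-29a-3p to miR-29b-3p there, 511 reads against 0, had an exact 95% interval starting at 138. Set against a floor of 3 counts per library, the 511 reads gave 170. In replicate 1 that ratio was 15.8 (exact 95% interval 5.86 to 59.6), and in Sed plasma 2.95 and 2.03.

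Other measures differed between the plasma groups along with miR-29b-3p. The 5 red cell marker miRNAs took 70.1% and 52.8% of the miRNA reads in Sed plasma and 13.9% and 14.8% in Exe plasma, a sum carried by miR-451a (813063 ± 389644 CPM in Sed and 99486 ± 34938 in Exe, SD, n = 2 each, log2 fold change -3.03, edgeR adjusted p = 0.0899). These CPM are not shares of reads, because TMM rescales the library sizes, by a factor of 0.642 in Sed plasma replicate 1. miR-486a-5p and miR-486b-5p, whose counts are identical and both enter the sum, had estimates of the other sign (1330 ± 1789 CPM in Sed and 8742 ± 1047 in Exe, SD, n = 2 each, log2 2.72, edgeR adjusted p = 0.279). The 5 leukocyte markers took 0.211% and 0.156% of the reads in Sed plasma and 2.25% and 1.98% in Exe plasma. Most of that sum was miR-150-5p (1915 ± 1938 CPM in Sed and 15168 ± 3318 in Exe, SD, n = 2 each, log2 2.99, edgeR adjusted p = 0.115). Only 2 of the 5 were tested and edgeR called 0. miR-142a-3p went the other way, with 6.80 ± 9.61 CPM in Sed and 0.279 ± 0.394 in Exe (SD, n = 2 each). The 7 brown adipocyte markers, 6 of them listed in plasma, took 0.508% and 0.172% in Sed and 0.149% and 0.0266% in Exe. Most of this sum was miR-378a-3p (4668 ± 4404 CPM in Sed and 626 ± 532 in Exe, SD, n = 2 each, log2 -2.90, edgeR adjusted p = 0.192). A second whole number that the plasma table holds beside each read count, whose making is not stated, came to 30.2% and 4.67% of the reads in Sed and 71.0% and 61.1% in Exe over all miRNAs. For the 4 members with reads it was 14.3% to 22.6% in Sed and 96.4% to 100% in Exe. The part of these differences in the miR-29 values was not tested, but with the second numbers in place of the read counts the estimate of miR-29b-3p was -6.57 (edgeR adjusted p = 0.403).

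**Figure D3:**
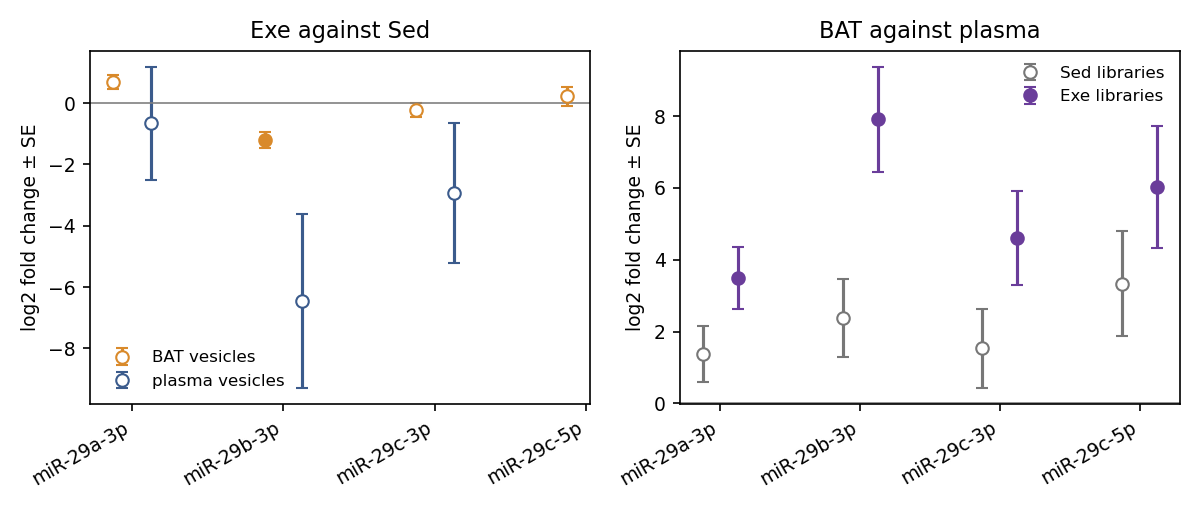
Log2 fold change with SE for each member, Exe against Sed in BAT and in plasma (left) and BAT against plasma in Sed and in Exe libraries (right); filled points have an adjusted p under 0.05. miR-29b-3p is the only filled point on the left, at -1.19 in BAT, and all 4 members are filled in the Exe libraries on the right; miR-29c-5p was not tested in plasma alone.

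The difference between the exercise effects in the 2 vesicle sources was tested in a joint fit of the 4 groups over 234 shared miRNAs. It was past the threshold for miR-29b-3p, whose Exe to Sed change was lower in plasma than in BAT by 5.53 ± 1.55 on the log2 scale (SE, edgeR adjusted p = 0.0271). miR-29a-3p (-2.13 ± 1.06, edgeR adjusted p = 0.146), miR-29c-3p (-3.07 ± 1.52, 0.145) and miR-29c-5p (-2.70 ± 1.91, 0.287) were also below 0 but not called. The 1 called of 4 stands beside 29.1% of all tested, whose median difference was -0.57. The call for miR-29b-3p was lost without any one of Sed BAT replicates 1, 2 and 3 (edgeR adjusted p = 0.0746, 0.0516 and 0.0644) or Exe BAT replicates 1 and 2 (0.0511 and 0.0661). The joint fit gives each miRNA 1 spread shared by the 4 groups. Fitted in plasma alone, the change of miR-29b-3p had an SE of 2.83, above the 1.55 of the difference. Source, table and any batch cannot be told apart here.

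Between sources, all 4 members were higher in BAT than in plasma vesicles among Exe libraries and none was called among Sed libraries by edgeR, where 1 (miR-29c-5p) had an unadjusted p under 0.05. In Exe the log2 difference was 7.91 ± 1.47 for miR-29b-3p (edgeR adjusted p = 0.00143), 6.03 ± 1.70 for miR-29c-5p (0.0102), 4.61 ± 1.30 for miR-29c-3p (0.0102) and 3.50 ± 0.86 for miR-29a-3p (0.00541), with SEs. These 4 of 4 calls compare with 66.7% of all tested miRNAs, and the median difference of all was 0.90. In Sed the log2 differences were 1.38 ± 0.78, 2.37 ± 1.08, 1.54 ± 1.10 and 3.33 ± 1.47 (SE) for miR-29a-3p, miR-29b-3p, miR-29c-3p and miR-29c-5p. Their edgeR adjusted p-values were 0.181, 0.105, 0.275 and 0.0951, in a comparison where 42.3% of all were called and the median was 1.21. DESeq2 and library size alone called all 4 members in Sed. Of all 234 miRNAs, DESeq2 called 101 higher and 49 lower in BAT there, and library size alone 138 and 14. Library size alone raised the median of all miRNAs by 2.62. Single plasma libraries moved these estimates widely. In Sed, leaving out Sed plasma replicate 1 or 2 gave 0.94 and 2.32 for miR-29a-3p, 1.79 and 3.72 for miR-29b-3p, 0.78 and 3.77 for miR-29c-3p, and 8.24 (against 0 reads) and 2.52 for miR-29c-5p. In Exe, leaving out Exe plasma replicate 1 or 2 gave 2.83 and 5.33, 11.17 and 7.18, 7.27 and 4.06, and 8.37 and 5.30 in the same order of members, all called; the values without replicate 1 of miR-29b-3p and miR-29c-5p stand against 0 reads and depend on the prior count.

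Ordered by level, miR-29a-3p, miR-29b-3p, miR-29c-3p and miR-29c-5p followed one another in every BAT library, as reads per mature sequence of 22 or 23 bases. In Sed BAT the leading pair overlapped (2826 to 3588 CPM against 2327 to 3241), and in Exe BAT the middle pair did (979 to 1549 CPM for miR-29b-3p against 866 to 999 for miR-29c-3p). By abundance among all miRNAs of a library, miR-29a-3p ranked between 33 and 44 in BAT, and miR-29b-3p between 40 and 51 in Sed BAT and between 57 and 68 in Exe BAT.

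Across the 6 BAT libraries the 3p members did not vary alike. On log2 CPM, miR-29a-3p and miR-29b-3p had a Pearson r of -0.62 (Spearman -0.54), miR-29a-3p and miR-29c-3p -0.50 (-0.66), and miR-29b-3p and miR-29c-3p 0.82 (0.89). These are descriptions over 6 libraries that share the Sed and Exe split and the library depth. Among 106 miRNAs averaging 50 counts or more, the closest to miR-29a-3p were miR-15b-5p (r 0.98, rho 1), miR-139-5p (0.94, 1) and miR-93-5p (0.92, 0.94). The closest to miR-29b-3p were the miR-30 family members miR-30e-5p (0.98, 1) and miR-30a-5p (0.98, 1), and miR-1b-5p (0.97, 0.94). For miR-29c-3p they were miR-1839-5p (0.96, 1), let-7e-5p (0.96, 0.89) and miR-181b-5p (0.93, 1).

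Other miRNAs known from work on fibrosis give the setting. Of 13 reported to restrain it, 10 were tested in BAT and none was called by edgeR, DESeq2 or limma-voom (2 with an unadjusted edgeR p under 0.05), with 6 above and 4 below 0 and a median log2 fold change of 0.38. The most abundant were miR-378a-3p (0.73 ± 0.62, SE, edgeR adjusted p = 0.414), miR-26a-5p (-0.14 ± 0.26, 0.740), miR-133a-3p (0.46 ± 0.24, 0.179) and miR-24-3p (0.68 ± 0.36, 0.182). Of 10 reported to promote it, 9 were tested and 1 fell, miR-34a-5p, a p53-induced miRNA (-1.05 ± 0.20, SE, edgeR adjusted p = 0.0107), with a median of -0.19. The other abundant ones were miR-21a-5p (-0.40 ± 0.22, edgeR adjusted p = 0.205), miR-27a-3p (-0.13 ± 0.32, 0.785) and miR-125b-5p (-0.19 ± 0.25, 0.599). In plasma 11 and 6 miRNAs of these lists were tested and edgeR called none (2 and 1 with an unadjusted p under 0.05), while DESeq2 and limma-voom each called 0 and 1 lower.

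Some marker miRNAs of cell types were called in BAT too, and each list's count stands beside the 22.6% called over all tested miRNAs. Of 7 brown adipocyte markers, 4 with estimates above 0 and 3 below, 2 rose, miR-193b-3p (1.17 ± 0.29, SE, edgeR adjusted p = 0.0167) and miR-455-3p (1.57 ± 0.44, 0.0306), while miR-365-3p (-1.08 ± 0.35, 0.0547) and miR-193a-3p (-0.69 ± 0.55, 0.376) had estimates below 0. DESeq2 called 1 of the 7 higher and 1 lower. Of the 9 fibroblast and stromal markers tested none was called by edgeR, DESeq2 or limma-voom (0 with an unadjusted edgeR p under 0.05), and their summed share of miRNA reads was 6.85% to 11.3% in Sed BAT and 7.32% to 10.1% in Exe BAT. Of 5 tested muscle markers miR-1a-3p fell (-1.47 ± 0.30, edgeR adjusted p = 0.0107), while 3 had estimates above 0 (miR-133a-3p, miR-133b-3p and miR-206-3p) and the median of the list was 0.19. Of 5 leukocyte markers miR-142a-3p fell (-1.19 ± 0.28, edgeR adjusted p = 0.0154), while the other 4 had estimates above 0, among them miR-223-3p (0.65 ± 0.25, 0.0888) and miR-155-5p (0.95 ± 0.45, 0.149), and the median was 0.62. The liver marker miR-122-5p rose by edgeR (2.62 ± 0.82, adjusted p = 0.0493) and DESeq2 but was not called by limma-voom. Its groups overlapped, and the reads of the 2 liver markers were 13, 5 and 4 in Sed BAT and 89, 32 and 13 in Exe BAT, most of them in Exe replicate 1. The muscle markers took 2.99% to 5.61% of miRNA reads in Sed BAT and 2.51% to 3.57% in Exe BAT. The leukocyte markers took 0.686% to 0.889% and 0.764% to 1.13%, and of the 4 tested red cell and 2 endothelial markers 0 were called by any of the 3 tools or had an unadjusted edgeR p under 0.05. The part of these marker differences in the miR-29 values was not tested.

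**Figure D4:**
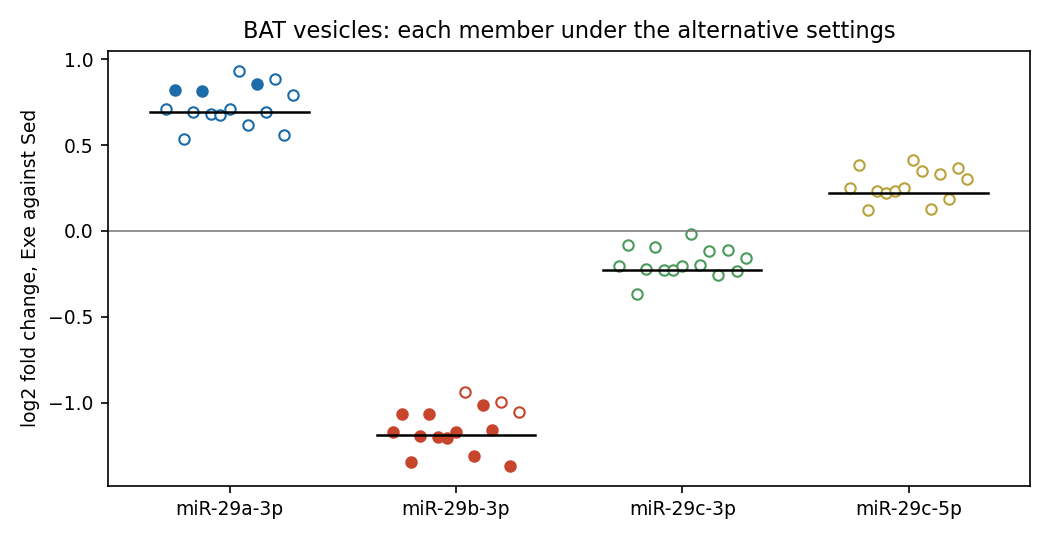
Log2 fold change of each member, Exe against Sed in BAT vesicles, under the alternative settings (points, filled where the adjusted p is under 0.05) and in the main test (bars). miR-29b-3p lies between -1.37 and -0.94 and miR-29a-3p between 0.54 and 0.93, and 12 of 15 points are filled for miR-29b-3p and 3 of 15 for miR-29a-3p.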

How the data were processed

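The authors deposited 1 table for BAT and 1 for plasma holding whole-number read counts of mature miRNAs for each library, per the file headers. The BAT table also holds deposited RPM values, scaled to totals that the values imply to lie between 18924900 and 21160800 reads. The plasma table holds a second whole number per library, whose making is not stated, used only as an alternative. Per the labels' protocols, Trizol served for extraction and a standard Illumina protocol for the libraries. Bowtie 0.12.2, mm8 and mm9 appear in the submitters' processing notes without a role; the counting program, miRBase release and trimming are not stated there or in the labels.

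Read counts were tested with edgeR 4.0.16 in R 4.3.3 (quasi-likelihood test, TMM, filterByExpr, robust dispersions), within each table or, for shared miRNAs, in a joint fit of the 4 groups. The joint fit, which also gave the comparisons of BAT against plasma, shares 1 spread over the 4 groups. P-values were adjusted by Benjamini-Hochberg over all miRNAs tested, with a threshold of 0.05. The SE is the log2 fold change over the square root of F. Simulated counts with known changes were run through the BAT, plasma and difference-of-effects fits at set spreads. A pass mark was set for the BAT fit alone, so the check does not vouch for the other fits. Single values were compared by exact permutation in scipy 1.17.1; limma 3.58.1 and DESeq2 1.42.0 served as alternatives, with other scalings and filters and each library left out. Same-numbered Sed and Exe replicates did not deviate together (correlations of 0.004, -0.083 and -0.12 in BAT and -0.076 in plasma), so no block was used. The named miRNAs are the 4 members, the passenger arms, the 3 most correlated miRNAs per 3p member (log2 CPM, prior count 2) and, of each fibrosis list, those called and the 4 of largest mean count. Outside this rule, the single cell type markers given with values or estimates, miR-451a, miR-486a-5p and miR-486b-5p among them, were chosen after their values were seen. The members and lists were chosen with earlier results of these data known.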

Additional observations from a re-analysis of the deposited data

Results flagged for a closer look

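For miR-29b-3p the change from Sed to Exe differed between plasma and BAT vesicles by -5.53 on the log2 scale in the joint fit, by a test of the difference itself (edgeR adjusted p = 0.0271, SE 1.55). It was lower in Exe in both sources: reads were 1113 and 537 over the BAT groups, and 306 and 4 over the plasma groups. Over 18 alternatives the difference ranged from -8.76 to -4.39 and passed the threshold in 12.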

How the results depend on the processing

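In BAT, 1 member was called in the main test, 2 with upper-quartile factors, 2 at a mean of at least 50 counts, 0 with the library totals implied by RPM, and 0 to 2 with 1 library left out. In plasma the count was 0, and 1 with DESeq2. For the difference of effects it was 1, 2 with DESeq2 or upper-quartile factors, and 0 to 2 with 1 library left out. For BAT against plasma in Sed it was 0, 4 with DESeq2 or library size alone, 2 at a mean of at least 50 counts, 1 with limma-voom, and 0 to 3 with 1 library left out. In Exe every member tested was called under each of the 18 alternatives. Calls over all miRNAs moved as well. In BAT a mean of at least 50 counts gave 8 higher and 13 lower of 107. For the difference of effects, DESeq2 gave 43 and 59 of 234 and upper-quartile factors 20 and 63. In Sed, a mean of at least 50 counts gave 48 and 35 of 156, and limma-voom 64 and 37 of 234. In Exe, where 66.7% were called in the main test, DESeq2 gave 116 and 59 of 234. The cause of the shifts between settings was not tested.

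With the replicate number as a block, the numbers being shared only as numbers, 1 member was called in BAT (miR-29b-3p, edgeR adjusted p = 0.0328), 0 in plasma, 0 for the difference of effects (miR-29b-3p -5.37, 0.0994), 0 in Sed and 4 in Exe; in BAT the block left 8 miRNAs called higher and 17 lower, of 19 and 26.

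Reversals were miR-29a-3p in plasma without Exe replicate 1 (0.35, range -2.18 to 0.35 over libraries left out), miR-29c-5p in the difference of effects without Sed plasma replicate 1 (2.12, range -5.00 to 2.12), and miR-29c-3p on the RPM scale, which was -0.017 and became 0.15, 0.0013 and 0.16 without Sed BAT replicates 1 and 2 and Exe BAT replicate 1 (range -0.18 to 0.16). Where a group was left with 1 library, that library was assumed to vary like the others. Across scalings the median of all miRNAs in the difference of effects moved by -0.99 to 1.13. By depth, miR-29c-5p rests on 15 to 29 reads a BAT library, and plasma values of 3 or fewer counts per library are at the floor.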
